A study of Mus musculus with 4 samples.

Results

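The knockout of both Ogg1 and Mutyh was set against the knockout of Ogg1 alone in mouse hippocampus, which asks what the loss of Mutyh goes with where Ogg1 is already absent. The comparison takes 2 of the 4 libraries of the study, 1 per genotype, and covers 13186 of the 18492 genes listed in any library, those with a mean of at least 1 RPKM (reads per kilobase of gene and per M reads of the library, M being mega) over the 4. All mice were C57BL/6 and 6 months of age. The 2 libraries compared are Ogg1-/- (Ogg1 KO below) and the genotype spelled Ogg-/- Mutyh-/- in its label (DKO), so both lack Ogg1. The other pair, wild type (WT) and Mutyh-/- (Mutyh KO), gives the same loss of Mutyh with Ogg1 intact, and shares no library with the first. The number and sex of the animals behind a library, and the exons deleted, are not stated in the sources used here. With 1 library per genotype there is no replicate check and no test: each statement compares 2 libraries, not 2 genotypes.

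8-oxoguanine, the commonest oxidised base of DNA, pairs with adenine as readily as with cytosine. OGG1 is the DNA glycosylase that cuts it out opposite cytosine, and MUTYH is the glycosylase that removes an adenine placed opposite it, so that the base can be repaired in a later round. NUDT1 (MTH1) clears the oxidised nucleotide from the pool before it is built in. In neurons, which do not divide, 8-oxoguanine arises mainly from the byproducts of respiration, and the hippocampus, with its granule and pyramidal cells, depends on the transcription of activity-regulated genes for memory.

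The libraries held 17.02 M reads in genes in Ogg1 KO and 18.20 M in DKO, against 18.12 M in WT and 17.15 M in Mutyh KO. Markers of the labelled tissue were present in all: Prox1, a transcription factor of dentate granule cells, had 1383 reads from WT, 1175 from Ogg1 KO, 1464 from Mutyh KO and 1489 from DKO, and Wfs1, a marker of CA1 pyramidal cells, had 2620, 2502, 2388 and 2959. A list of ribosomal and structural RNAs took 0.581% of the reads in Ogg1 KO and 1.80% in DKO, against 0.851% in WT and 1.61% in Mutyh KO. The Mutyh KO library held 10307 reads of Xist, the RNA of the inactive X chromosome, where the other 3 held 14 to 29, so the second pair also differs in sex-linked transcripts.

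The targeted genes were read first. Mutyh (gene ID 70603) had 39 reads from WT, 35 from Ogg1 KO, 15 from Mutyh KO and 20 from DKO, and reads covered 55.9%, 57.1%, 18.4% and 27.7% of its length. The libraries labelled as lacking Mutyh were the low ones in both respects. The ratio of DKO to Ogg1 KO, as reads per library total, was 0.534 with an exact conditional 95% interval of 0.292 to 0.952, and its level of 0.89 RPKM on average left Mutyh under the limit for comparison. Ogg1 (gene ID 18294) had 94, 130, 81 and 103 reads in the same order, with 86.7%, 47.2%, 81.5% and 46.4% of its length covered. The total was above that of WT in both libraries labelled as lacking Ogg1, by few reads in DKO, so the total alone did not show the loss. No interval against WT is given here. The fold of DKO to Ogg1 KO was 0.741 (0.567 to 0.967). The covered share was low in the 2 libraries labelled as lacking Ogg1 and nearly the same in them, 734 bases in Ogg1 KO and 722 in DKO. Camk1, a calcium- and calmodulin-dependent kinase gene beside Ogg1, had 510, 160, 503 and 155 reads, and so was close in the libraries compared at 0.906-fold (0.722 to 1.14). Whether the counting used strand is not stated in those sources, so reads of genes that overlap on opposite strands cannot be told apart. Nudt1 had 24, 28, 24 and 33 reads, 1.10-fold (0.646 to 1.89).

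A gene and its processed copy differed in opposite directions. Ndufs5 encodes a small subunit of respiratory complex I and lies on chromosome 4, 67 compared genes away from Mutyh. It is also on a list of genes known to vary among Black 6 mice. BC002163 is a processed pseudogene of Ndufs5 on chromosome 16. The copies are nearly the same, and the stretch in which they differ is printed here because the values turn on it. Over 319 aligned bases of the GENCODE M21 transcripts (GRCm38), 317 were identical, and the substitutions were T173C and A197G, counted from the 5′ end of the transcript Ndufs5-201 with the Ndufs5 base first. The 121 bases within reach of a 49-base read over either position follow, with the differing bases in capitals. They lie in exon 2 of 3 of Ndufs5, within the coding sequence (chr4:123715927-123716047, minus strand), and in the single exon of BC002163 (chr16:42955663-42955783, plus strand).
Ndufs5: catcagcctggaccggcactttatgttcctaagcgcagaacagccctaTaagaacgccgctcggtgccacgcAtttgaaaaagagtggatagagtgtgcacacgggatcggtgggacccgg
BC002163: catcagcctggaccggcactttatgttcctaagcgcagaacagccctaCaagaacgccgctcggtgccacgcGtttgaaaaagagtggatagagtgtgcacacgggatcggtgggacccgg

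Ndufs5 had 151 reads from WT, 135 from Ogg1 KO, 36 from Mutyh KO and 36 from DKO. BC002163 had 1, 1, 124 and 149. In reads of each gene the 2 libraries lacking Mutyh stood together, apart from the 2 that carry it. Coverage of Ndufs5 did not show this grouping: equal counts of 36 reads covered 208 bases for Mutyh KO but 70 for DKO. WT had 184 covered bases of this gene, and Ogg1 KO had 238. In DKO against Ogg1 KO the fold was 0.249 (0.168 to 0.363) for Ndufs5 and 139 (24.6 to 5541) for BC002163, the latter resting on 1 read in Ogg1 KO. In Mutyh KO against WT it was 0.252 (0.170 to 0.364) and 131 (23.1 to 5217). The sum of the pair was 152, 136, 160 and 185 reads, or 8.39, 7.99, 9.33 and 10.2 per M reads, so the reads of the pair differed much less between libraries than the reads of its members. In Mutyh KO and in DKO the reads of BC002163 covered 24% of its 500 bases, 120 bases in each, where the window printed above is 121 bases long. Of 271 possible 49-base windows of BC002163-201, 198 are identical in an Ndufs5 transcript and 73 are not, and the deposited counts are of uniquely placed reads. The assignment of reads within this pair is therefore uncertain, and the sequence carried by each library was not tested.

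Over all genes the libraries were close. The log2 ratio of DKO to Ogg1 KO, taken after adding 1 RPKM to each value, had a median of -0.02, and 98.4% of genes lay within 1.5-fold. By sign 54.1% of genes were lower and 45.9% higher in DKO, the background for each count of members below. On that scale 40 genes were at least 2-fold higher in DKO (0.303% of genes compared) and 11 at least 2-fold lower (0.0834%). Counting error alone was exceeded more often: the interval of the fold lay wholly above 1 for 14.1% of genes and wholly below 1 for 19.8%, which is the background for every list below. Higher genes made up 78.4% of these 51, 62.2% when 0.1 RPKM was added in place of 1 (61 higher, 37 lower) and 60% among genes with a mean of at least 5 RPKM (9 and 6). Of the 51 genes, 40 had intervals excluding 1. The 11 whose intervals held 1 were all genes under 200 bases long, mostly small nucleolar RNAs and microRNA precursors with few reads. Ogg1 KO was the lowest of the 4 libraries for 33 of the 40 higher genes, and DKO the highest for 24. Among all genes Ogg1 KO was lowest in 24.3% and DKO highest in 19.6%. Ogg1 KO was likewise the highest library for 8 of the 11 lower genes. All 51 were picked by the ratio of these same libraries, which favours such an order. The shares over all genes are therefore no measure of how far Ogg1 KO stands apart.

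**Figure D1:**
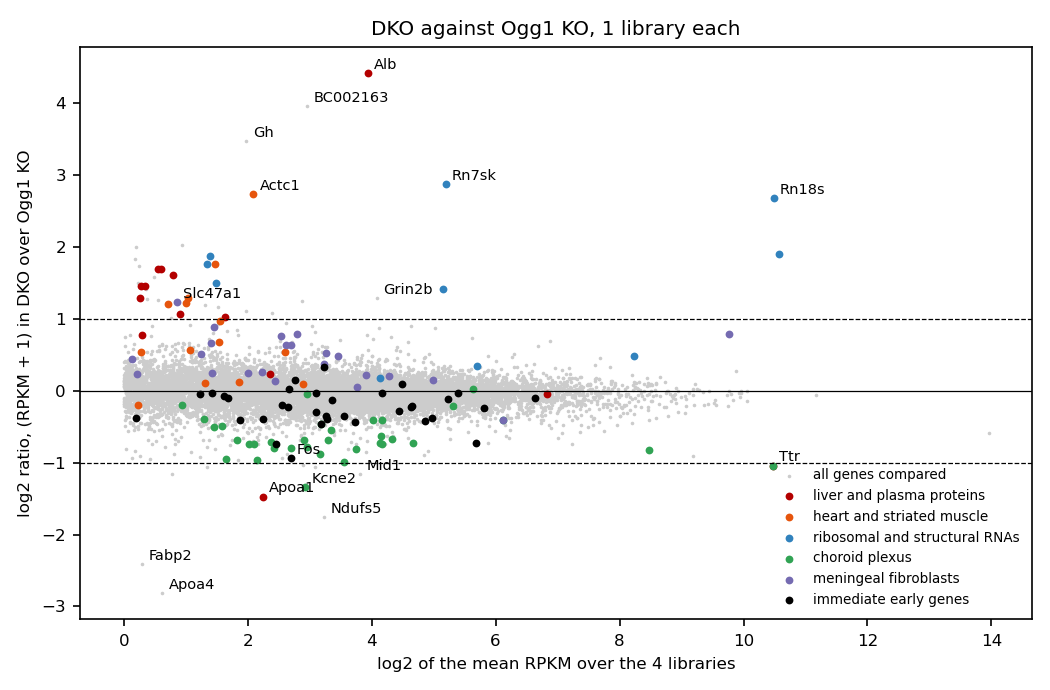
Each point is 1 of 13186 genes: the horizontal axis is the log2 of its mean RPKM over the 4 libraries, the vertical axis the log2 ratio of RPKM + 1 in DKO over Ogg1 KO, and dashed lines mark 2-fold. Many liver and heart genes and structural RNAs (coloured) lie above the upper line with BC002163 and Gh, 33 of 34 choroid plexus genes lie below 0, and 30 of 34 immediate early genes (black) lie below 0 within 2-fold.

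The genes of other tissues made up many of the 2-fold differences, and for nearly all it was the Ogg1 KO library that differed from the other 3. Alb, serum albumin made by the liver, had 752 reads from WT, 0 from Ogg1 KO, 723 from Mutyh KO and 761 from DKO. It was 237-fold higher in DKO when 3 reads per library stand for a count of 0, and its exact interval began at 192. Serpina3k (59, 0, 48 and 67 reads), Serpina1e (57, 0, 36 and 56), Mup20 (42, 0, 35 and 34), Ahsg (44, 0, 37 and 47) and, outside the list, Gc, the vitamin D-binding protein (56, 0, 36 and 60), followed the same order. Fgg, a chain of fibrinogen, had 48, 1, 39 and 43 reads. Of the 14 liver and plasma genes compared, 11 were higher and 3 lower in DKO, 9 of the 11 at least 2-fold, and the lower ones were Apoa1, Ttr and the transferrin gene Trf. Fgg, Ahsg, Serpina1b, Serpina3k and Serpina1e passed the filter only with their DKO values counted in the mean, as did Gc. The count of higher members and the list median therefore depend on that filter. The list median was 1.18 on the scale with 1 RPKM added, and 2.71 as log2 of the fold in reads with the 6 counts of 0 in Ogg1 KO set to 3 reads. Among the 4 members with a mean of at least 5 RPKM it was 0.09. Serpina and Mup genes have near-identical copies, among which reads cannot be assigned with certainty. That fewer cells of a type and less RNA per cell give the same value in bulk tissue holds here and for every cell type below.

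Heart and muscle genes followed the liver genes. Actc1, cardiac actin, had 128, 0, 150 and 144 reads in the order WT, Ogg1 KO, Mutyh KO and DKO. At the floor of 3 reads it was 44.9-fold higher in DKO than in Ogg1 KO, and its exact interval began at 36.0. Myl2, the ventricular myosin light chain, had 47, 2, 41 and 35 reads, 16.4-fold (4.20 to 140). Myh6, the atrial myosin heavy chain, had 251, 55, 278 and 286 reads, and Mb, myoglobin, 47, 6, 64 and 45. In all, 13 of the 14 heart and striated muscle genes were higher in DKO and 9 had intervals above 1, with a median of 0.62, or 0.92 in reads with the 1 count of 0 at the floor. Ogg1 KO was the lowest of the 4 libraries for 11 of them and for 10 of the 14 liver genes.

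Of 13 intestinal genes listed only 3 were compared, and 2 of these ran the other way. Those 2, Apoa4 and Fabp2, passed the filter only through Ogg1 KO, where they were high. Their lower values in DKO therefore say nothing about intestinal genes as a set. Apoa4, an apolipoprotein of the gut, had 1 read from WT, 171 from Ogg1 KO, 3 from Mutyh KO and 0 from DKO. It was 60.9-fold lower in DKO at the floor, and the exact interval of the fold reached up to 0.0204. Fabp2, the intestinal fatty acid-binding protein, had 0, 62, 2 and 1 reads, 0.0151-fold (0.000376 to 0.0872). Apoa1, made by both liver and gut, was also high in Ogg1 KO alone, with 67, 165, 46 and 52 reads and a fold of 0.295 (0.212 to 0.405). Lct, lactase, the third member compared, did not share this pattern and had 1258, 1014, 968 and 1138 reads. In DKO alone the pituitary hormone gene Gh, growth hormone, was high, with 4, 7, 1 and 256 reads, 34.2-fold (16.4 to 85.9). Gh passed the filter only through DKO. Prl, prolactin, under the limit for comparison, had 0, 5, 4 and 48 reads. The source of the transcripts of other tissues was not tested.

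Structural RNAs, which oligo(dT) selection would largely remove, were higher in DKO for 10 of 10 genes compared, 8 with intervals above 1. Of the 21 members of the list, 16 were matched and only these 10 passed the filter. The list median was smaller with a looser filter. Rn7sk, the 7SK RNA that holds back transcription elongation, had 182 reads from WT, 39 from Ogg1 KO, 299 from Mutyh KO and 345 from DKO, 8.27-fold (5.93 to 11.8). Rn18s, the RNA of the small ribosomal subunit, had 37564, 10434, 68029 and 71723 reads, 6.43-fold (6.30 to 6.56), and Rn28s1, of the large subunit, 95108, 49314, 166015 and 197531 reads, 3.75-fold (3.71 to 3.78). For all 3, Ogg1 KO was lowest and WT next. The long nuclear RNA Malat1 had 18756, 36451, 37851 and 54443 reads, 1.40-fold (1.38 to 1.42), and here WT was lowest. How RNA was selected before library preparation is not stated in those sources, and the part of the rRNA share in other differences was not tested.

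Immediate early genes, whose transcription neuronal firing switches on within minutes, were lower in DKO. Of 34 members compared, 30 were lower and 21 had intervals below 1 (background 19.8%), 4 were higher and 2 had intervals above 1 (background 14.1%), and the median log2 ratio was -0.23 against -0.02 over all genes. DKO was the lowest of the 4 libraries for 25 of the 34, where it was lowest for 24.7% of all genes. No member reached 2-fold with 1 RPKM added. The list had been seen to be low in DKO against WT before this comparison was made.

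Fos, the AP-1 subunit commonly used to mark active neurons, had 251 reads from WT, 243 from Ogg1 KO, 343 from Mutyh KO and 118 from DKO. DKO was low and the other 3 were high, and the fold to Ogg1 KO was 0.454 (0.361 to 0.568). Arc, which acts on receptor uptake at synapses, had 3200, 2907, 3067 and 1864 reads, 0.60-fold (0.566 to 0.636), with DKO again alone. Egr2, a zinc finger factor, had 67, 50, 93 and 29 reads, 0.542-fold (0.331 to 0.874), and Junb, a partner of Fos, 1088, 968, 1226 and 787 reads, 0.760-fold (0.691 to 0.836). For Gadd45b, a stress and demethylation factor, Ogg1 KO was highest of the 4, with 131, 154, 130 and 89 reads and a fold of 0.540 (0.412 to 0.706). Klf10, a repressor, had 455, 570, 493 and 427 reads, 0.701-fold (0.617 to 0.796), with DKO close to WT. Nr4a1, an orphan nuclear receptor, stood at 0.742-fold and Fosb at 0.692-fold. Bdnf, a growth factor, was higher at 1.29-fold (1.16 to 1.43) with 762, 620, 628 and 854 reads, as was Homer1, a synaptic scaffold, at 1.07-fold (1.01 to 1.14). Egr3, at 0.984-fold (0.900 to 1.08), and Dusp6, at 0.983-fold (0.893 to 1.08), differed by no more than counting error.

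Promoters of 3 of these genes are printed as examples that hold half-sites, and not as typical members. Many immediate early genes are known to be controlled by CREB, which binds the cAMP response element TGACGTCA and its half-site TGACG. The 250 bases before the start are from RefSeq (GRCm38.p6), with half-sites on either strand (TGACG or CGTCA), and the full element that holds a half-site on each strand, in capitals. Fos is on chr12:85473640-85473889 (plus strand), Nr4a1 on chr15:101266596-101266845 (plus) and Dusp1, a phosphatase of MAP kinases, on chr17:26508473-26508722 (minus).
Fos: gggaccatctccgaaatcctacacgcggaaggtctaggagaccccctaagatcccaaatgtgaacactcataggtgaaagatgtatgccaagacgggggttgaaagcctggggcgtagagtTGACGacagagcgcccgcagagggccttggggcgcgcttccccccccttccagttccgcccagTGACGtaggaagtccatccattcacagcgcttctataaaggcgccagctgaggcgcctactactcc
Nr4a1: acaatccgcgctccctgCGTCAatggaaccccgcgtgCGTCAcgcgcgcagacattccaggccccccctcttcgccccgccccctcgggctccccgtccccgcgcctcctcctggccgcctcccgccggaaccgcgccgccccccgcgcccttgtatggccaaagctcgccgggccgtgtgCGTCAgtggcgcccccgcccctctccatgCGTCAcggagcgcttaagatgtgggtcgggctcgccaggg
Dusp1: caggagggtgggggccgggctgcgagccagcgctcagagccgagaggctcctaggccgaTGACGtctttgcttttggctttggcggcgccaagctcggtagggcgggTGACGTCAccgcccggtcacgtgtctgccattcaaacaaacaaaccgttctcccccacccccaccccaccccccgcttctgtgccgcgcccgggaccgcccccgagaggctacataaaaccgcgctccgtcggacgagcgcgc

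Fos has 2 half-sites in this stretch, Nr4a1 has 4, and Dusp1 has 1 full element and 1 further half-site. Over windows from 250 bases before to 50 after a start, RefSeq held 38 promoters of 26 members. Of the 38, 22 (57.9%) had a half-site on either strand, against 30% of 13496 promoters of the genes compared. Windows of the same gene can overlap, so the 38 are not independent. By gene, 19 of the 26 had a half-site, and the share by gene over all genes was not computed. The full element was in 2 of the 38 (5.26%, against 2.89%). The CArG box of serum response factor was in 5 (13.2%, against 1.32%), 4 of them windows of Egr2 that overlap or lie close together and 1 of Dusp5. Bdnf, which was higher, has 7 promoters in the table, of which 1 has a half-site, and Homer1 has 3 half-sites in 1 of its windows. Gadd45b, Ier5 and Fosl2, with log2 ratios of -0.74, -0.38 and -0.34, have no half-site in their windows. A match is a description of these letters and not of binding, and a part of CREB in these values was not tested.

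**Figure D2:**
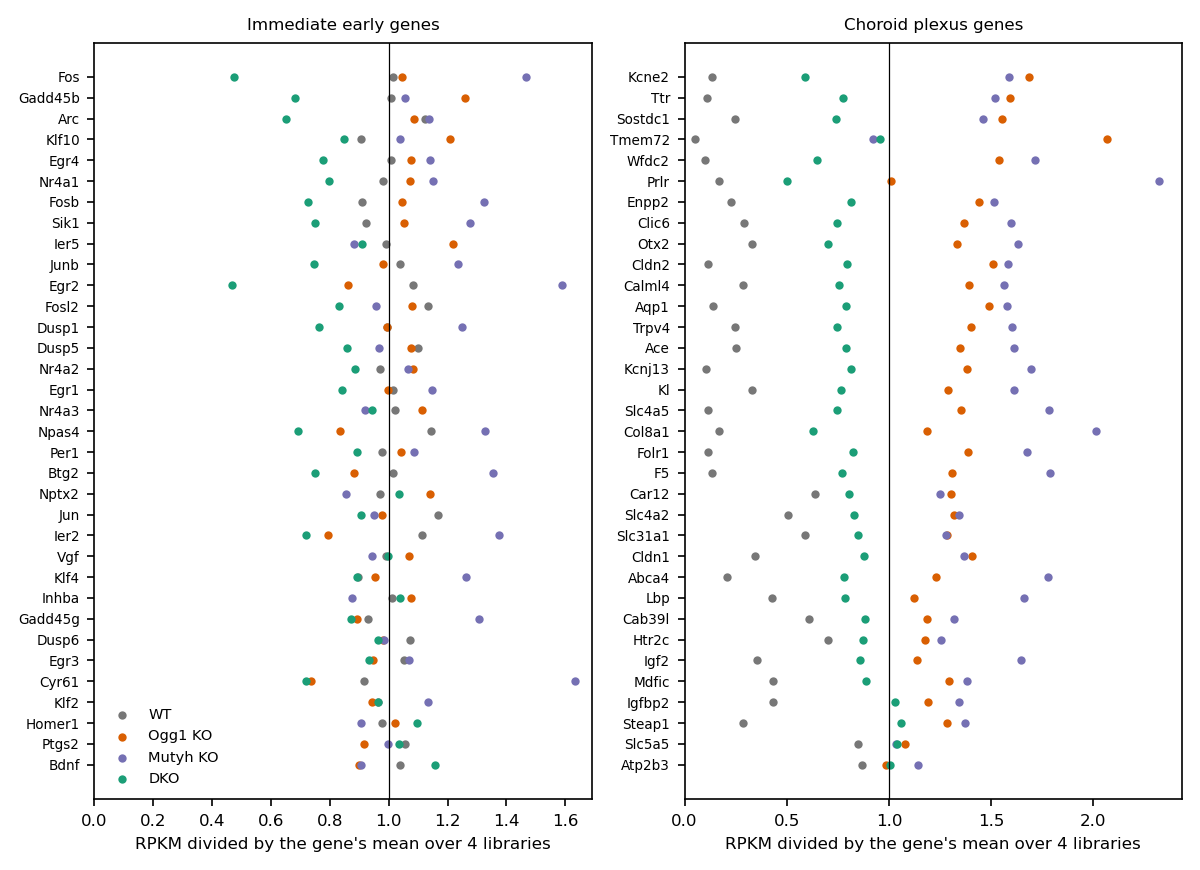
RPKM of each gene divided by its mean over the 4 libraries, by library (colour), for the 34 immediate early genes at left and the 34 choroid plexus genes at right, ordered by the log2 ratio of DKO to Ogg1 KO. DKO is the leftmost point for 25 of the 34 immediate early genes. In the right panel WT is mostly far left, Ogg1 KO and Mutyh KO are right, and DKO lies between.

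The choroid plexus, the epithelium that makes cerebrospinal fluid and hangs in the ventricle beside the hippocampus, differed more than the immediate early genes. Ttr, the thyroid hormone carrier it secretes, had 3542 reads from WT, 47882 from Ogg1 KO, 45999 from Mutyh KO and 24883 from DKO, 0.486-fold (0.479 to 0.494) in DKO against Ogg1 KO. Kcne2, a potassium channel subunit, had 32, 374, 355 and 140 reads, 0.350-fold (0.286 to 0.426). Sostdc1, a secreted BMP inhibitor, had 91, 541, 513 and 277 reads, and Tmem72 14, 522, 235 and 258. Of 34 members, 33 were lower, 31 had intervals below 1 and none above, and the median was -0.70. DKO was neither the highest nor the lowest library for any of them. The list held 1147 reads per M reads for WT, 6385 for Ogg1 KO, 6812 for Mutyh KO and 3616 for DKO. Some members are not particular to this epithelium: Atp2b3, a calcium pump of neurons, stood at 1.02-fold (0.974 to 1.07). Cdkn1c, an imprinted cell cycle inhibitor outside the list, had 99, 323, 215 and 163 reads, 0.472-fold (0.389 to 0.572).

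Fibroblasts of the meninges, the sheath around the brain, differed in the opposite direction. Of 23 members, 22 were higher in DKO and 20 had intervals above 1, against a background of 14.1%, with a median of 0.44, and DKO was the highest library for 17 (19.6% of all genes). Slc47a1, an organic cation exporter, had 57 reads from WT, 39 from Ogg1 KO, 79 from Mutyh KO and 164 from DKO, 3.93-fold (2.76 to 5.73). Crabp2, a carrier of retinoic acid, had 28, 33, 35 and 79 reads, 2.24-fold (1.47 to 3.47), and Aldh1a2, which makes retinoic acid, 111, 192, 248 and 379, 1.85-fold (1.55 to 2.21). Ptgds, the prostaglandin D synthase, had 7951, 9638, 13843 and 17854 reads, 1.73-fold (1.69 to 1.78). The exception was Igf2, a growth factor made by both meninges and choroid plexus, with 1797, 5430, 7914 and 4388 reads and a fold of 0.756 (0.726 to 0.787). Prg4, a lubricating proteoglycan, and Itih2, a binder of hyaluronan, were outside every list and higher as well, with 138, 126, 204 and 401 reads and with 96, 74, 125 and 256. Smooth muscle and pericyte genes were higher for 11 of 15 members (median 0.22), with Myh11, smooth muscle myosin, at 1.47-fold (1.33 to 1.63) and Anpep, in the other direction, at 0.576-fold (0.473 to 0.70).

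The following lists of other cells and brain regions differed less than those of choroid plexus and meninges. Ependymal and cilia genes had a median of -0.18 (10 of 16 lower, 4 intervals below 1), led by Dynlrb2, a dynein light chain, at 0.540-fold (0.320 to 0.895). Blood cell genes had a median of -0.23 (5 of 7 lower, 2 intervals below 1 and 2 above), with Beta-s, a beta-globin, at 0.717-fold (0.645 to 0.798) and Alas2, the first enzyme of haem synthesis in red cells, at 1.44-fold (1.07 to 1.95). Globin genes have near-identical copies. Striatal genes had a median of -0.23 (9 of 10 lower, 5 intervals below 1). Ppp1r1b (DARPP-32), which relays dopamine signals in striatal neurons, had 924, 1341, 1277 and 980 reads in WT, Ogg1 KO, Mutyh KO and DKO, 0.683-fold (0.629 to 0.743). Thalamus and habenula genes stood at 0.04 (-0.10 over the 6 members with a mean of at least 5 RPKM) and neocortex genes at -0.04. These lists differed in the same pair of libraries as the immediate early genes, and their part in that difference was not tested.

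Among hippocampal neurons, the CA1 pyramidal list was higher for 11 of 12 members, 8 with intervals above 1 and none below, with a median of 0.17. Fibcd1, a CA1 marker, had 3854 reads from WT, 2658 from Ogg1 KO, 2874 from Mutyh KO and 3623 from DKO, 1.27-fold (1.21 to 1.34), and so was near WT in DKO. The dentate granule list stood at 0.08 (13 of 20 higher, 8 intervals above 1 and 3 below). The CA2 and CA3 list stood at 0.04 (10 of 16 higher, 5 intervals above 1 and 3 below). In it Bok, a member of the BCL-2 family, was at 1.63-fold (1.44 to 1.84). GABAergic interneuron genes had a median of -0.15, with 13 of 19 lower and 10 intervals below 1. Dlx1, a factor of interneuron development, had 294, 381, 336 and 198 reads, 0.486-fold (0.407 to 0.579). Pvalb, the calcium buffer of fast-spiking cells, had 284, 438, 268 and 298, 0.636-fold (0.547 to 0.739), so that Ogg1 KO was the high library and DKO was near WT. Genes of neurogenesis and progenitors were lower for 10 of 12 members (median -0.22, 6 intervals below 1), with Stmn1, a microtubule destabiliser of young neurons, at 0.768-fold (0.734 to 0.804) and Nes, nestin, at 1.21-fold (1.04 to 1.41).

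Receptor genes differed by a few members. Grin2b, the NMDA receptor subunit that gives slow currents and a role in plasticity, had 2309 reads from WT, 1159 from Ogg1 KO, 2335 from Mutyh KO and 3232 from DKO, 2.61-fold (2.44 to 2.79), and was the 1 receptor gene of these lists past 2-fold. Grin2a, the subunit that replaces it with maturation, had 316, 577, 667 and 1018 reads, 1.65-fold (1.49 to 1.83), with WT lowest. Grin1, the subunit all such receptors carry, was at 1.14-fold (1.11 to 1.17), and Grin2d at 0.732-fold (0.631 to 0.848). Gabrb1, a GABA-A receptor subunit, had 875, 534, 781 and 1098 reads, 1.92-fold (1.73 to 2.14), and Gabra2 was at 0.796-fold (0.751 to 0.844). The medians were 0.14 over 6 NMDA subunits, 0.05 over 12 GABA-A subunits, 0.01 over 9 AMPA and kainate subunits and 0.04 over 7 metabotropic receptors.

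**Figure D3:**
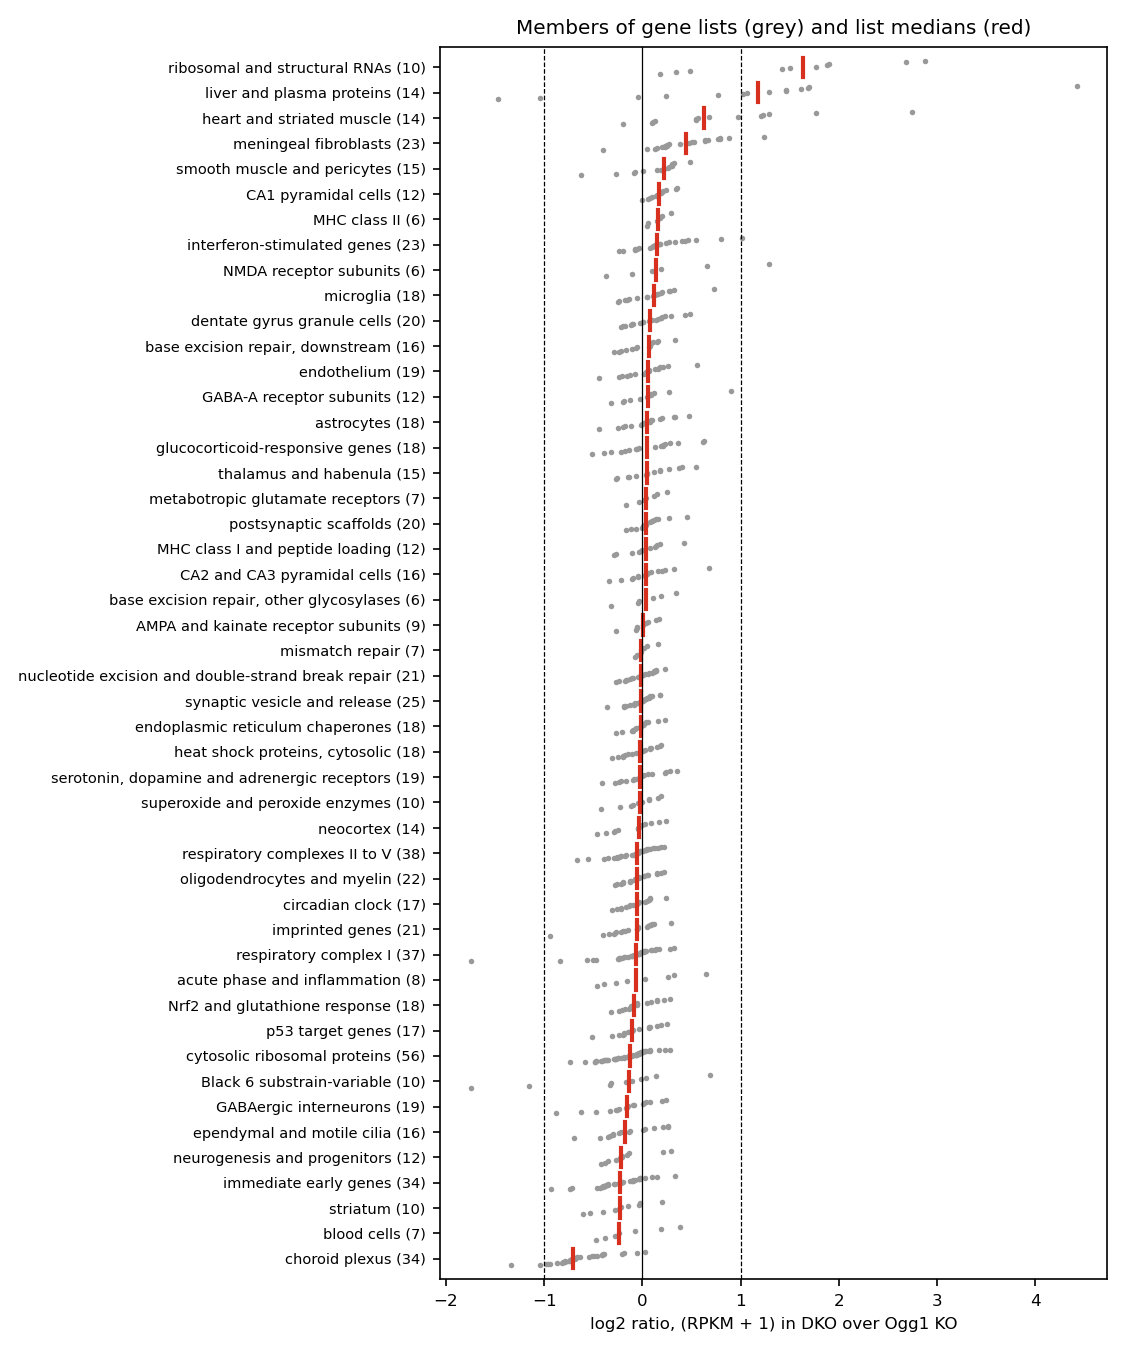
Each grey point is a member of a gene list with at least 6 members compared (number in brackets) and the red bar is the list median, on the log2 ratio of RPKM + 1 in DKO over Ogg1 KO, with dashed lines at 2-fold. Structural RNAs, liver, heart and meningeal genes lie at the top, choroid plexus genes at the bottom, and lists of DNA repair and synapse genes near 0.

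DNA repair genes were close in the 2 libraries. The enzymes that finish base excision repair after a glycosylase were higher for 9 of 16 and lower for 7, with 2 intervals above 1, 2 below, and a median of 0.07. Aplf, a scaffold of strand break repair, was at 1.30-fold (1.14 to 1.47), and Pcna, the sliding clamp of polymerases, at 0.812-fold (0.713 to 0.925). Of 6 other glycosylase genes compared, 3 were higher and 3 lower. Mbd4, which acts on deaminated bases in CpG sites, had 172, 235, 183 and 188 reads in WT, Ogg1 KO, Mutyh KO and DKO, 0.748-fold (0.614 to 0.910), with Ogg1 KO the high library. Nthl1, a glycosylase for oxidised pyrimidines, was at 1.48-fold (0.866 to 2.58). Mismatch repair genes had a median of -0.01, which changed sign under 2 of 3 other scalings, with no interval excluding 1 among 7. The p53 targets stood at -0.11 (11 of 17 lower, 4 intervals below 1 and 2 above). Over all genes 54.1% were lower, 19.8% had intervals below 1 and 14.1% above. Cdkn1a, the p21 inhibitor of the cell cycle, had 155, 171, 169 and 118 reads, 0.645-fold (0.506 to 0.821). Nrf2 and glutathione genes stood at -0.08 (12 of 18 lower), with Gsr, glutathione reductase, at 0.783-fold (0.679 to 0.902) and Slc7a11, the cystine importer, at 1.24-fold (1.15 to 1.35).

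Genes of ribosomes and respiration were slightly lower. Of 56 ribosomal protein genes, 45 were lower and 30 had intervals below 1 (background 19.8%), with a median of -0.13. Rps28 had 821 reads from WT, 1148 from Ogg1 KO, 743 from Mutyh KO and 736 from DKO, 0.60-fold (0.546 to 0.658), and Rpl24 1601, 1981, 1502 and 1412, 0.667-fold (0.622 to 0.714), and in each Ogg1 KO stood above the other 3. Ogg1 KO was the highest library for 34 of the 56, against 28.9% of all genes. Ribosomal protein genes have many processed copies, so their counts of unique reads are uncertain. Complex I genes were lower for 26 of 37 (median -0.06), where Ndufa1 followed Ndufs5 at 0.548-fold (0.456 to 0.657), with 297, 326, 269 and 191 reads. Genes of complexes II to V were lower for 26 of 38 (median -0.05), with Atp5k, a subunit of ATP synthase, at 0.628-fold (0.552 to 0.714). Gene length moved with these values: the median log2 ratio was -0.12 over 85 genes of 200 to 500 bases, -0.08 over 804 genes of 500 to 1000 bases and -0.00 over 3933 genes of at least 4000 bases, and the ribosomal protein genes had a median length of 693.5 bases against 2887.5 over all genes. The part of length in these medians was not tested.

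Immune genes showed small differences. Interferon-stimulated genes were higher for 17 of 23 members, with 8 intervals above 1 and 1 below and a median of 0.15, but of -0.05 over the 6 members with a mean of at least 5 RPKM. Ifi27l2a had 9 reads from WT, 7 from Ogg1 KO, 18 from Mutyh KO and 24 from DKO, 3.21-fold (1.34 to 8.81), and Ifitm1, a membrane protein that restricts viral entry, 30, 18, 43 and 43, 2.23-fold (1.26 to 4.12). The 6 MHC class II genes, which present antigen, were all slightly higher with no interval excluding 1. Cd74, their invariant chain, had 72, 246, 176 and 274 reads, 1.04-fold (0.874 to 1.24). Microglial genes stood at 0.12, with Olfml3 at 1.71-fold (1.51 to 1.94) and Trem2, a lipid receptor, at 0.826-fold (0.641 to 1.06).

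Outside the lists, Ltc4s, the enzyme that makes leukotriene C4, had 34, 125, 85 and 60 reads in WT, Ogg1 KO, Mutyh KO and DKO, 0.449-fold (0.324 to 0.615), with DKO between WT and the single knockouts. Plac9a, a small secreted protein gene, had 114, 83, 56 and 38, 0.428-fold (0.284 to 0.636), lower in each library that lacks Mutyh than in its partner. Mid1, a ubiquitin ligase gene at the edge of the pseudoautosomal region, had 465, 2120, 348 and 978 reads, 0.431-fold (0.400 to 0.466). Erdr1, also pseudoautosomal, had 1754, 1427, 1011 and 2469, 1.62-fold (1.52 to 1.73). Both, like Ndufs5, are on a list of genes known to vary among Black 6 mice. Mid1 was high in both libraries that lack Ogg1, more so in Ogg1 KO. Leaving out genes under 200 bases and the lists of other tissues, pituitary, choroid plexus and structural RNAs, which was decided with the values in view, kept 7 genes higher and 4 lower: BC002163, Gc, Grin2b, Slc47a1, Itih2, Prg4 and Ifi27l2a higher, and Ndufs5, Mid1, Plac9a and Ltc4s lower.

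A knockout allele can carry the flanking chromosome of the strain it was made in, so genes beside each deleted gene were read apart. Of the 100 compared genes nearest Mutyh on chromosome 4, 50 to each side in annotation order, none reached 2-fold, 8 had intervals above 1 and 21 below, and the median was -0.01. Ndufs5, 67 compared genes from Mutyh, lies outside these 100. Those of the 100 that were at least 1.5-fold apart were all lower. Rab3b, a GTPase of synaptic vesicles 36 genes to one side, had 976 reads from WT, 899 from Ogg1 KO, 695 from Mutyh KO and 551 from DKO, 0.573-fold (0.515 to 0.638). Foxo6, a forkhead factor of hippocampal neurons 43 genes to the other side, had 662, 689, 432 and 402, 0.546-fold (0.481 to 0.618). For both genes each library lacking Mutyh was lower than its partner. Ccdc24 (37, 63, 78 and 42 reads) and Cited4 (20, 46, 22 and 27) did not share that order. In both comparisons of Mutyh loss the interval lay below 1 for 9 of the 100 genes and above 1 for 5, against 4.67% and 3.8% of all genes. Near Ogg1, which both libraries lack, 19 of 100 genes on chromosome 6 had intervals above 1 and 21 below, with Tmem72, a choroid plexus gene, at 0.462-fold, Rad18, a ligase of damage tolerance, at 0.607-fold (0.432 to 0.847) and Il5ra at 1.80-fold (1.21 to 2.71).

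**Figure D4:**
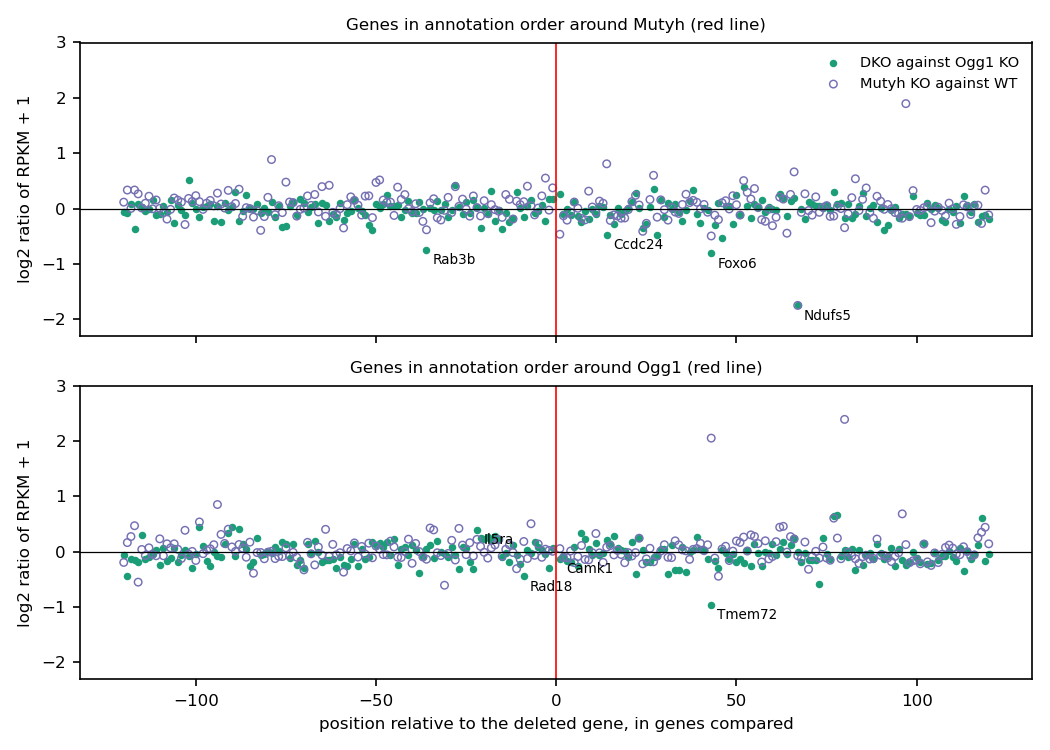
Log2 ratio of RPKM + 1 for genes in annotation order around Mutyh (top) and Ogg1 (bottom), for DKO against Ogg1 KO (filled) and Mutyh KO against WT (open), by the number of compared genes from the deleted gene. Ndufs5 has nearly the same value in both comparisons, -1.75, and Rab3b and Foxo6 lie below 0 in both.

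The comparisons with and without Ogg1 shared few of their largest differences. In Mutyh KO against WT 98 genes were at least 2-fold higher (0.743%) and 12 lower (0.091%). Only 6 genes were past 2-fold in the same direction in both comparisons, 11.8% of the 51 and 5.45% of the 110, and 6 others were past it in opposite directions. With both intervals excluding 1 the shared genes were BC002163, Ndufs5 and Rs5-8s1, the last a ribosomal RNA with 42, 61, 117 and 179 reads in WT, Ogg1 KO, Mutyh KO and DKO. The other shared genes, Snord96a, Snord14e and Mir9-1, had at most 6 reads in any library. Across the 13186 genes, which are not independent replicates, the 2 log2 ratios had a Pearson r of -0.01 and a Spearman rho of 0.05, and 51.7% of genes had the same sign. Meningeal genes were above 0 in both comparisons (medians 0.44 and 0.59) and so were structural RNAs (1.63 and 0.77), while liver genes had medians of 1.18 and -0.04. The medians of structural RNAs and liver genes rest on the members that passed the filter.

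**Figure D5:**
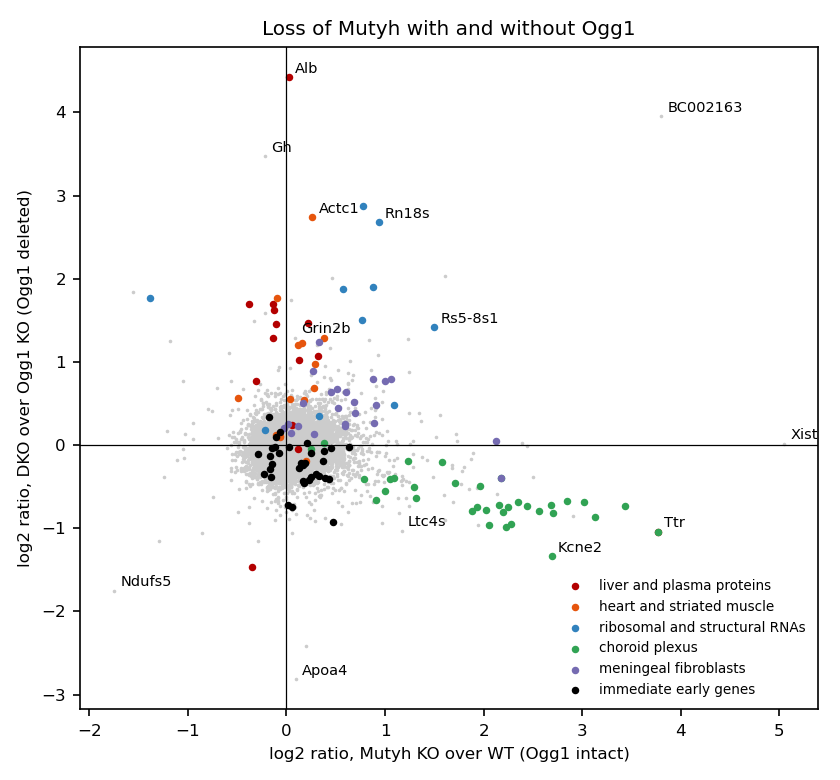
Log2 ratio of RPKM + 1 for the loss of Mutyh with Ogg1 deleted (vertical, DKO over Ogg1 KO) and with Ogg1 intact (horizontal, Mutyh KO over WT), 1 point per gene. BC002163 lies high and Ndufs5 low on both axes, choroid plexus genes lie at lower right, and liver and heart genes other than Ttr lie near 0 on the horizontal axis.

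The share of a gene's length that reads covered, as deposited, was close between the libraries. Among genes with 100 to 300 reads in both the median coverage was 84.2% in Ogg1 KO and 86.3% in DKO, and among those with at least 1000 reads it was 98.0% and 98.2%. Of 12638 genes with at least 20 reads in each library and a fold within 1.5, 2 differed in coverage by 30 percentage points or more. Gemin6, a part of the complex that assembles small nuclear ribonucleoproteins, was covered over 61.2% from WT, 48.6% from Ogg1 KO, 52.95% from Mutyh KO and 80.6% from DKO, with 28, 30, 19 and 35 reads. The gene 3110007F17Rik was covered over 59.2%, 78.9%, 45.3% and 45.01%, with 32, 36, 26 and 31 reads. Both rest on few reads.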

How the data were processed

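RNA of mouse hippocampus was sequenced in 4 libraries, 1 per genotype. The authors isolated it with RNeasy columns and followed standard Illumina library preparation, per the labels' protocols; the genome build was mm9, per the submitters' processing notes. The aligner and annotation are not stated in the sources used here. The authors deposited, per the file headers, a count of unique reads per gene, the gene length, the coverage as a percent of the gene's length and the RPKM.

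Genes missing from a library were taken as 0. Genes with a mean of at least 1 RPKM over the 4 libraries were compared by the log2 ratio of RPKM + 1, which understates differences of low genes, and a gene was counted at 2-fold. Folds are ratios of reads per library total with exact conditional 95% intervals (scipy 1.17.1, Clopper-Pearson), and 3 reads stand for a count of 0; both cover counting error only, and PCR copies are not independent molecules. With 1 library per genotype no p-value was computed. Other pseudocounts, filters, gene sets and scalings (edgeR 4.0.16, TMM) were tried, and the calculation was tested on simulated data.

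The rule named Ogg1, Mutyh and Nudt1, up to 15 genes per direction past 2-fold with intervals excluding 1 (only 9 were lower), the members furthest from 0 in each list, neighbours past 1.5-fold, genes past 2-fold in both comparisons, and genes whose coverage differed. The 54 lists, 989 of 1005 members matched, and the comparison itself were chosen with earlier results of these data known. Gene order came from RefSeq (GRCm38), since the files' build was mm9, for 13143 of the genes compared, and transcripts from GENCODE M21.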

Additional observations from a re-analysis of the deposited data

Results flagged for a closer look

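The loss of Mutyh went with differences of opposite sign on the 2 backgrounds for several results, and no difference between the backgrounds was tested, since each background has 1 library per arm. On the log2 scale, Ltc4s stood at -1.03 in DKO against Ogg1 KO and 1.17 in Mutyh KO against WT, Ttr at -1.04 and 3.77, Kcne2 at -1.33 and 2.69, and the microRNA gene Mir703, 109 bases long and with at most 24 reads in a library, at 1.25 and -1.18. List medians of opposite sign were those of immediate early genes (-0.23 and 0.16), choroid plexus (-0.70 and 2.10), ependymal and cilia genes (-0.18 and 0.54) and blood cell genes (-0.23 and 1.49). In DKO against Ogg1 KO, 10 of 16 ependymal genes were lower and 4 had intervals below 1, against 54.1% and 19.8% of all genes. Among the 7 blood cell genes, 2 had intervals below 1 and 2 above. Mutyh KO and WT also differ in sex-linked transcripts.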

How the results depend on the processing

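With 0.1 RPKM added in place of 1, 61 genes were at least 2-fold higher in DKO and 37 lower, and with 5 RPKM 9 and 3. Genes past 2-fold numbered 9 higher and 6 lower at a mean of at least 5 RPKM, and 59 higher and 26 lower both at a mean of at least 0.1 RPKM and with no filter. An interval wholly above 2 left 24 higher, genes listed in both libraries 25, genes of at least 200 bases (added after seeing the data) 26, and leaving out the lists of other tissues, pituitary, choroid plexus and structural RNAs 18 higher and 6 lower. The median of structural RNAs was 0.81 with 5 RPKM added, 0.61 at the 0.1 RPKM filter and 0.73 unfiltered, that of choroid plexus -0.47 with 5 RPKM, and that of liver genes 2.70 with 0.1 RPKM, 0.41 with 5 RPKM and 0.0945 at the 5 RPKM filter. At that filter, which leaves fewer members, 7 of 51 list medians changed sign. Those of at least 0.1 in size as reported were pituitary (-0.22, 1 gene), intestine (0.0634, 1 gene) and interferon genes (-0.0548, 6 genes), and the others were other glycosylases (-0.0378), mismatch repair (0.0041), thalamus and habenula (-0.10) and MHC class I genes (-0.0591). The 0.1 RPKM filter changed the sign of 1 of 53 medians and no filter that of 2, and neither other pseudocount changed any. TMM scaling changed the sign of 0 of 53 medians, median-of-ratios of 1 (mismatch repair, 0.0014) and rRNA-free scaling of 3 (mismatch repair, 0.0047, nucleotide excision and double-strand break repair, 0.0027, and synaptic vesicle genes, 0.0038), all at most 0.0138 in size as reported. The calls of 24 of 24 named genes were the same under the 3 scalings, and adding 5 RPKM took 14 of the 24 below 2-fold. No replicate block could be fitted because each genotype has 1 library. The 4 libraries would allow a model of both losses without interaction, with 1 residual degree of freedom, which was not run. Genes with few reads, such as small RNAs, are limited by counting error.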
